A study of Caenorhabditis elegans with 36 samples.

Results

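The X-linked protein-coding genes of Caenorhabditis elegans were taken as the protein-coding entries that the annotation of the ce11 assembly places on chromosome X. Histone, major sperm protein, sperm, F-box, MATH/BATH, nuclear receptor, C-type lectin, collagen, neuropeptide, insulin, ribosomal protein and chemoreceptor symbols were left out, which removed 97 entries of the adult table and 143 of the embryo tables. This left 2111 of the 31003 entries of the adult small RNA table and 2511 of the 46740 entries of the embryo tables. Of these, 2108 had at least 1 count in adults, 1683 in embryo input and 1165 in embryo immunoprecipitates (IP). A mean of at least 20 counts was reached by 569, 286 and 92 of them, so most X-linked genes carried few small RNAs at either stage. After the filter on low counts 959 were tested in adults, 436 in embryo input and 201 in the IP.

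C. elegans hermaphrodites carry a pair of X chromosomes, whose expression in somatic cells is lowered by the dosage compensation complex, and in the germline the X is largely silent. Most small RNAs that map antisense to worm genes are 22G-RNAs, made by RNA-dependent RNA polymerases on messenger RNA templates and bound by worm Argonautes. NRDE-3 is the Argonaute that carries such small RNAs into the nuclei of somatic cells, and the gene that encodes it lies on X.

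Small RNAs were sequenced from animals grown at 20 °C on HB101 bacteria, with libraries that do not depend on the chemistry of the RNA's 5′ end. Whole young adults gave 2 wild-type (wt) libraries, numbered 1 and 3 in the labels, 3 nip2nip3 libraries and 3 nip3_qe17 libraries, qe17 being the allele named for nip3. Mixed-stage early embryos gave 2 input libraries and 2 libraries of small RNA recovered with anti-FLAG M2 from wt, and the same from a strain labelled nipnip2. The IP protocol names NRDE3:FLAG, so wt and nipnip2 embryos are read here as sharing that tagged protein. No label gives the identifiers of the nip genes, so the mutated genes could not be checked. Library totals were 6363050 to 10963258 counts in adults, 1149366 to 2200655 in embryo input and 2957435 to 5956980 in the IP. Separate cultures are not stated for the replicates, and the p-values therefore reflect only how far these libraries differ, which may be technical. Counting is not stated to use strand, and 905 of the 2511 X-linked genes overlap another annotated gene, whose reads cannot be told apart from theirs.

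X-linked genes gave a smaller part of the protein-coding small RNA counts in both adult mutants than in wt. They held 7.53% and 7.21% of protein-coding counts in the wt libraries, 3.52%, 2.93% and 2.95% in nip2nip3, and 2.78%, 3.05% and 2.84% in nip3_qe17. The group means were 7.37% ± 0.230 (SD, n = 2), 3.14% ± 0.332 (n = 3) and 2.89% ± 0.143 (n = 3), and no mutant library reached a wt library. Without the 10 X-linked genes with the most counts, the shares were 4.93% and 4.76% in wt and 1.52% to 1.90% over the 6 mutant libraries. In whole animals, fewer cells of a type and less small RNA per cell cannot be told apart.

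In embryos the share over all X-linked genes was higher and did not separate the genotypes in the input. It was 14.5% and 15.7% in wt input, and 15.8% and 15.7% in nipnip2 input. In the NRDE-3 IP it was 18.1% and 17.4% in wt and 21.5% and 21.7% in nipnip2, with both mutant libraries above both wt libraries. These embryo shares rested on few genes. The 3 X-linked genes with the most counts held 41.4% to 54.4% of X-linked counts in input and 84.0% to 86.3% in the IP, against 16.3% to 26% in adults. Without the top 10 genes the IP share was 0.391% and 0.364% in wt and 1.24% and 1.21% in nipnip2. The input share without them was 5.44% and 5.32% in wt and 7.69% and 6.66% in nipnip2, so there the genotypes did separate.

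**Figure D1:**
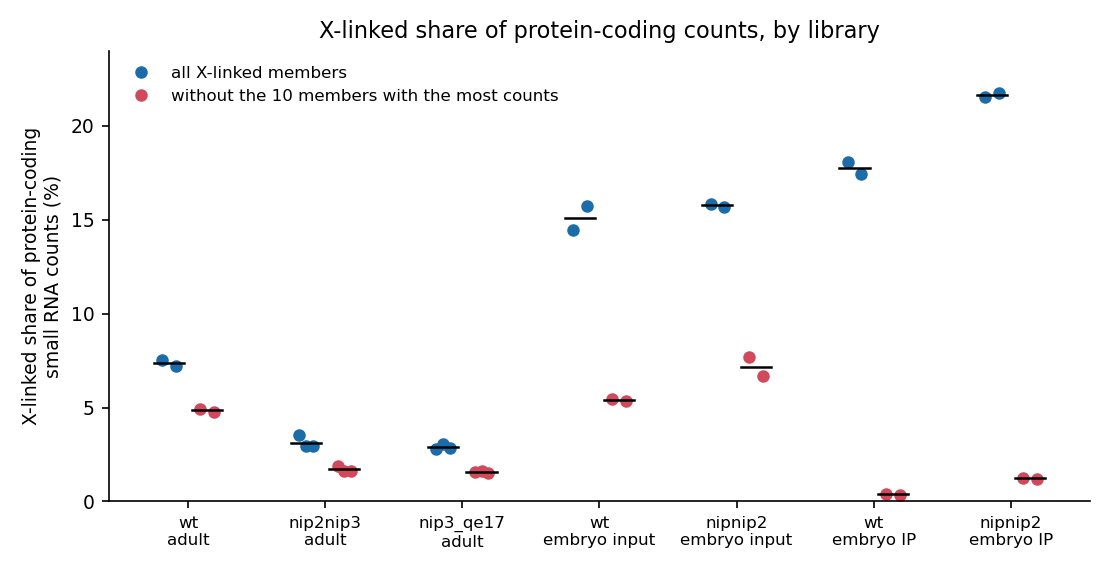
Share of protein-coding small RNA counts at X-linked genes (y axis, percent) in each of the 16 libraries, by group; points are libraries and black lines group means, with all X-linked genes in blue and the remainder without the 10 genes with the most counts in red. All 6 adult mutant libraries lie at 2.78% to 3.52%, below the wt libraries at 7.21% and 7.53%, and the IP shares fall to at most 1.24% without the top 10 genes.

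To ask which X-linked small RNAs depend on nip2 and nip3 in adults, each gene of the whole table was tested with edgeR's quasi-likelihood test, called at a Benjamini-Hochberg adjusted p under 0.05. In nip2nip3, 538 of the 959 X-linked genes tested fell and 76 rose, with a median log2 fold change of -1.15. Over all 16595 genes tested 21.3% were called lower and 22% higher, with a median of 0.05. In nip3_qe17, 543 X-linked genes fell and 58 rose, with a median of -1.19, where over all genes tested 19.1% were called lower and 17.8% higher, with a median of 0.01. A decrease of 4-fold or more was fitted for 272 and 274 of the called X-linked genes, and an increase of the same size for 8 and 4. The comparisons share the wt libraries, and are given side by side only.

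Protein-coding genes on each autosome, chosen by the same symbols, were called lower less often. The X-linked percentages were 56.1% lower and 7.92% higher in nip2nip3, and 56.6% and 6.05% in nip3_qe17. For autosomal genes together they were 25.1% lower and 20.5% higher in nip2nip3, and 19.3% and 20.6% in nip3_qe17. Single autosomes ran from 20.6% lower on chromosome IV to 27.3% on I in nip2nip3, and from 16.2% on IV to 22.2% on V in nip3_qe17. These percentages are descriptions, with no test of the difference between chromosomes. Scaling shifted the median of all genes from 0.05 to -0.46 in nip2nip3 when libraries were scaled to microRNA counts, and the X-linked median stayed 1.2 below it on the log2 scale.

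**Figure D2:**
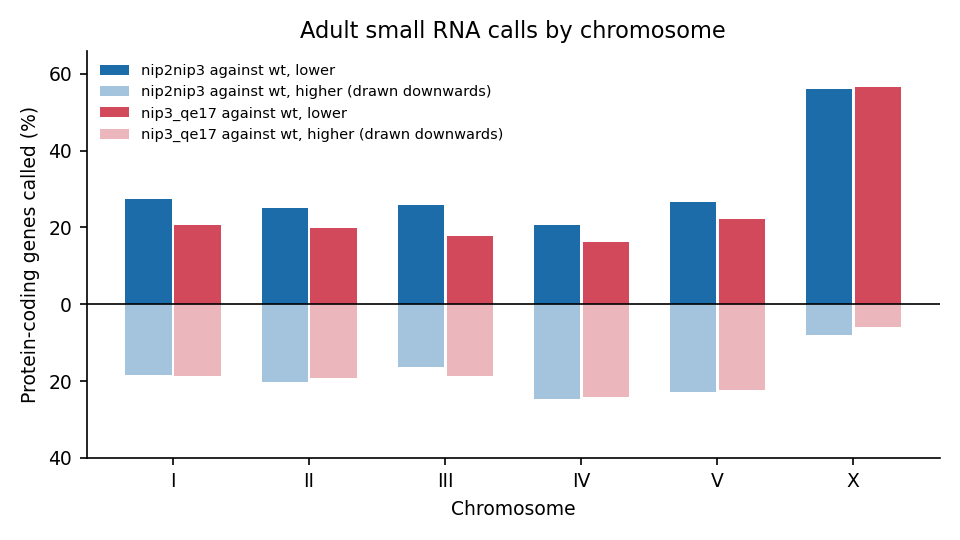
Percent of tested protein-coding genes called lower (bars up) or higher (pale bars, drawn downwards) in adult nip2nip3 (blue) and nip3_qe17 (red) against wt, by chromosome. On X 56.1% and 56.6% were lower, against at most 27.3% on any autosome, and 7.92% and 6.05% were higher.

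The filter passed some genes only because they were high in wt. In nip2nip3, 269 of the 959 genes reached the level of 10 counts in the median library in wt and not in the mutant, 68 in the mutant and not in wt, and 578 in both groups. Among those 578 genes 57.6% fell and 7.79% rose, with a median of -1.0, while of the 7627 autosomal protein-coding genes that reached the level in both groups 25.1% fell and 19.4% rose. In nip3_qe17, 59.4% of 596 X-linked genes in both groups fell, against 18.2% of 7628 autosomal genes. Of the X-linked genes that reached the level in wt and not in the mutant, 205 of 269 fell in nip2nip3 and none rose. In nip3_qe17 187 of 251 fell and none rose. The values by position, level, span and gene list below keep these genes in, so the filter shapes them in part. Without any filter, 561 and 571 of 2108 X-linked genes fell. The count of genes that rose depended more on the processing: without wt library 1 it was 45 in nip2nip3 and 30 in nip3_qe17, without wt library 3 it was 35 in nip3_qe17, without the nip3_qe17 library 3 it was 36, and by DESeq2 it was 46 and 34.

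Markers of germ cells and of stage moved with the adult genotypes, and their part in the X-linked decrease was not tested. All 30 major sperm protein genes tested rose in both mutants, with medians of 1.67 and 1.44, from 0.0151% to 0.0190% of library counts in wt to 0.0376% to 0.0497% in mutants. Of 41 other sperm genes tested, 27 rose and 2 fell in nip2nip3, and 25 rose and 2 fell in nip3_qe17. Oocyte and eggshell genes held 0.118% to 0.121% in wt and 0.0852% to 0.104% in mutants, with 3 of 13 lower and none higher in nip2nip3 and 2 of 13 in each direction in nip3_qe17. The embryo microRNAs mir-35 to mir-42 fell at 7 and 8 of 8 genes, from 0.523% to 0.700% in wt to 0.197% to 0.281%. Late larval and adult microRNAs held 0.700% to 0.762% in wt and 0.900% to 1.44% in mutants, and 2 and 1 of 4 tested rose. None of the 31 major sperm protein genes was at 0 in any adult library, and 1 of the 44 other sperm genes was at 0 in each of 5 of the 8. In embryos the late microRNAs were at 0 in 7 of 8 libraries, with 1 count in the other. The embryo microRNAs were low there too, at 0.00917% to 0.0168% of input counts, and microRNAs as a whole held 0.572% to 1.35% of input against 17.2% to 20.9% in adults. These microRNA counts therefore do not check the embryo stage label.

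Along the chromosome the decrease was deeper towards both ends, but not in the last 1 Mb at the right end. Each of the 18 bins of 1 Mb had a median log2 fold change below 0 in both mutants, from -0.32 to -1.78 in nip2nip3 and from -0.38 to -2.0 in nip3_qe17. In nip2nip3 73.7% of the genes tested fell in the bin at the left end, 28.6% in the bin from 6 to 7 Mb, 38.6% from 10 to 11 Mb, 74.1% from 15 to 16 Mb and 53.3% in the last bin. The nip3_qe17 values in the same bins were 71.9%, 26.2%, 38.6%, 75.9% and 53.3%. In the last bin the median log2 fold changes were -0.95 in nip2nip3 and -1.14 in nip3_qe17. Those of the bin from 8 to 9 Mb were deeper, at -1.15 and -1.33.

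By broader regions, chosen after the bins were seen, 148 of 232 genes in the first 4 Mb fell in nip2nip3, 242 of 504 between 4 and 14 Mb, and 148 of 223 beyond 14 Mb. As percentages these were 63.8%, 48.0% and 66.4%, and in nip3_qe17 63.4%, 48.6% and 67.7%. The median log2 fold changes in nip2nip3 were -1.42, -0.81 and -1.52. The genes of these regions had median log2 CPM of 2.0, 1.69 and 1.84. CPM here is the count relative to the library size after TMM scaling, which sets libraries level by the genes that change least.

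**Figure D3:**
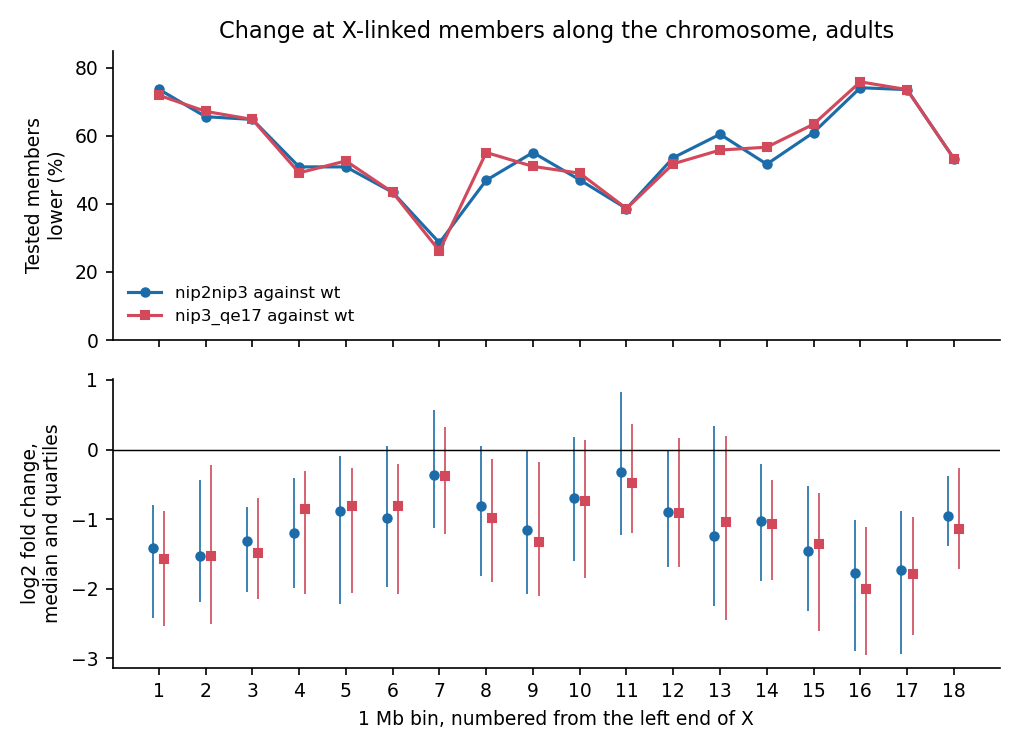
Adult change along X in 1 Mb bins numbered from the left end, for nip2nip3 (blue circles) and nip3_qe17 (red squares) against wt; upper panel, percent of tested X-linked genes called lower; lower panel, median log2 fold change with quartile bars. All 18 medians are below 0 in both mutants, and the percent lower is smallest in bin 7 (28.6% and 26.2%) and above 70 in bins 1, 16 and 17.

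Small RNA counts themselves were spread unevenly along X. The bin from 16 to 17 Mb, which holds got-1.2 and F59C12.4, had 20.0% and 19.6% of X-linked counts in wt adults and 25.4% to 30.5% in mutant adults. In wt embryo input that bin held 35.1% and 36.6%, and the bin from 11 to 12 Mb, with F46C3.7, held 24% and 26.1%. In the wt IP these bins held 41.9% and 43.2%, and 37.0% and 35.5%. The bin from 16 to 17 Mb also holds Y13C8A.1, whose counts nearly equal those of F46C3.7 in every embryo library. The embryo shares of the 2 bins may therefore rest partly on the same reads. Little of that bin's wt IP count came from got-1.2.

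X-linked genes with more small RNA were called lower more often. The 959 genes were split into 4 groups of equal size by mean log2 CPM over all 8 adult libraries. From the lowest to the highest group 44.2%, 43.1%, 61.3% and 75.8% fell in nip2nip3, and 45.8%, 41.4%, 62.5% and 76.7% in nip3_qe17. Autosomal genes within the same limits gave 22.5%, 20.6%, 20.1% and 27.9% in nip2nip3, and 24.1%, 20.9%, 17% and 19.1% in nip3_qe17. Low counts limit what the test can call in both sets, and the part of this limit in the rise was not tested. Genes that reached the filter's level in wt and not in the mutant were not set apart in these groups. The X-linked median log2 fold changes in the same order were -1.10, -0.83, -1.15 and -1.54 in nip2nip3. In nip3_qe17 they were -1.19, -0.86, -1.14 and -1.62. They were deepest in the highest group but did not deepen steadily with level. Autosomal medians lay from -0.15 to 0.05 in nip2nip3 and from -0.17 to 0.11 in nip3_qe17. Tested X-linked genes had less small RNA than autosomal ones in adults, with median log2 CPM of 1.77 against 3.82, but not in embryo input (4.33 against 4.32).

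**Figure D4:**
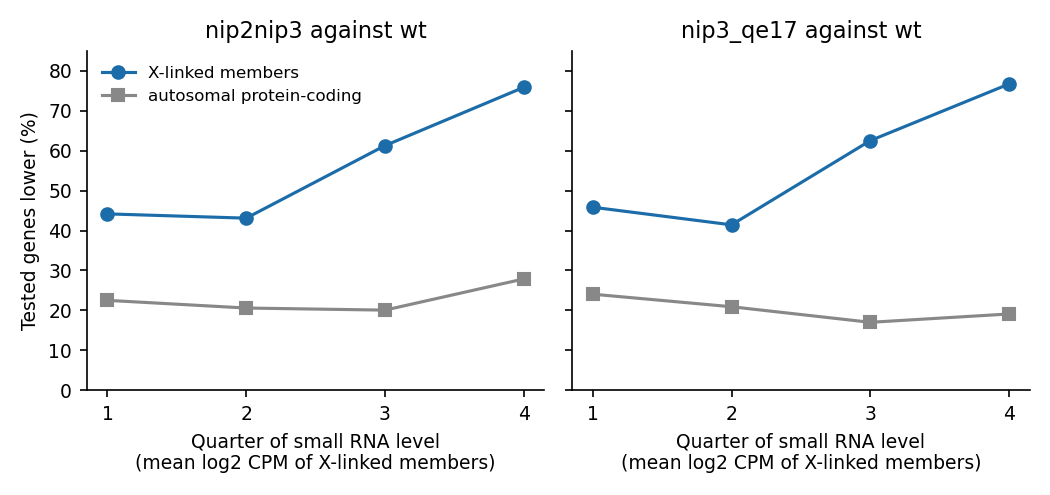
Percent of tested genes called lower against small RNA level (4 equal groups of the 959 X-linked genes by mean log2 CPM, 1 lowest), for X-linked genes (blue) and autosomal protein-coding genes in the same level limits (grey), in nip2nip3 (left) and nip3_qe17 (right). X-linked points run from 41.4% to 76.7% and autosomal points from 17% to 27.9%.

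Gene span and overlap went with smaller differences. In nip2nip3 65.4% of the genes in the group with the shortest spans fell, 56.5% and 57.5% of those in the middle groups, and 45% of those in the longest. Among 618 genes that overlap no other annotated gene 57.8% fell, and among 341 that do overlap one 53.1% fell.

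The X-linked genes richest in adult small RNA moved in both directions. F59C12.4, an entry of 150 bases at 16602473 to 16602622 on X (WBcel235, the assembly that ce11 names), had the highest CPM per kb of span in wt. It had 6823 and 7104 counts in wt and 8875, 11344 and 16814 in nip2nip3, a log2 fold change of 0.90 (SE 0.17). Its counts in nip3_qe17 were 5991, 16286 and 15107, for 0.64 (SE 0.16), and all mutant libraries were above wt once scaled. The edgeR adjusted p-values were 0.00163 and 0.0120.

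The aspartate aminotransferase gene got-1.2 (16791347 to 16793126) fell in both mutants. It had 27754 and 26297 counts in wt, against 8267, 7196 and 10748 in nip2nip3 and 6858, 12002 and 10974 in nip3_qe17. Its level fell from 3321 ± 332 CPM (SD, n = 2) to 1156 ± 149 and 1115 ± 101 CPM (n = 3 each), log2 fold changes of -1.52 (SE 0.14) and -1.57 (SE 0.14). The Skp1-related ubiquitin ligase gene skr-21 had log2 fold changes of -1.39 and -1.54, and Y7A5A.10 of -1.05 and -1.19. Among the 8 genes with the highest wt CPM per kb, F20B6.5 had the smallest decreases, of -0.41 (SE 0.14, adjusted p 0.0353) and -0.64 (SE 0.14).

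The largest decreases left almost no small RNA in the mutants. Y81B9A.1 (9192444 to 9194382) had 827 and 871 counts in wt, against 14, 16 and 13 in nip2nip3 and 20, 25 and 36 in nip3_qe17. Its log2 fold changes were -5.77 (SE 0.19) and -5.11 (SE 0.18), with edgeR adjusted p-values of 1.18e-08 and 2.23e-08. C45B2.6 (6053058 to 6057173) had 845 and 1148 counts in wt, against 8, 21 and 29 in nip2nip3 and 8, 24 and 39 in nip3_qe17. The log2 fold changes were -5.59 and -5.56. No mutant library came near a wt library at either gene.

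The neuroligin-related gene glit-1 (4712279 to 4715080) had 1155 and 1274 counts in wt, against 28, 40 and 41 in nip2nip3 and 31, 68 and 43 in nip3_qe17, log2 fold changes of -4.95 (SE 0.18) and -4.82 (SE 0.17). Counts at tbc-11, which encodes a Rab GTPase-activating protein, were 322 and 292 in wt, against 6, 5 and 13 in nip2nip3 and 8, 9 and 18 in nip3_qe17. The gene vhl-1, for the ubiquitin ligase subunit that targets HIF-1, had 148 and 131 counts in wt and 0, 7 and 5 in nip2nip3. All of these genes fell in every mutant library listed. T13C5.6, which overlaps mtp-18, had 1261 and 1412 counts in wt, against 62, 57 and 92 in nip2nip3 and 98, 143 and 153 in nip3_qe17. The polyketide synthase gene pks-1, which acts in nemamide synthesis, had 447, 791 and 819 counts in nip3_qe17 against 4722 and 4890 in wt, a log2 fold change of -2.95 (SE 0.10).

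The largest increases named by the rule were at most 3.13 on the log2 scale, at genes with no more than 72 counts in a wt library. Increases were not limited to such genes, since F59C12.4 rose in both mutants and T25C12.3, with 192 and 202 counts in wt, rose by 1.40 log2 in nip2nip3. The DOT1-related histone methyltransferase gene dot-1.3 (12301323 to 12302855) had 45 and 60 counts in wt, against 190, 209 and 309 in nip2nip3 and 179, 369 and 316 in nip3_qe17. The log2 fold changes were 2.26 (SE 0.15) and 2.31 (SE 0.15), with adjusted p-values of 1.26e-06 and 1.25e-06. F56C3.9 had 8 and 15 counts in wt, against 47, 46 and 81 in nip2nip3 and 52, 58 and 50 in nip3_qe17. The groups did not overlap at either gene, a condition of the rule. H03A11.2 rose by 1.69 and 1.34 log2, the acyltransferase gene oac-14 by 3.13 in nip2nip3, the intestinal peptide transporter gene pept-1 by 1.5 in nip2nip3, and the cadherin gene cdh-9 by 2.70 in nip3_qe17.

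Genes that count X chromosomes and set dosage compensation lie partly on X themselves. Over all X-linked genes tested 56.1% fell in nip2nip3 and 56.6% in nip3_qe17, so a count near those shares is nothing particular to a gene list, here or in the lists that follow. Of 5 tested, 3 fell in both mutants, sdc-2 rose in nip2nip3, and fox-1 was not called in either. The median log2 fold changes were -2.01 and -2.13. The gene xol-1 (8041313 to 8044409), the switch that turns development towards male fate, had 517 and 558 counts in wt, against 126, 112 and 127 in nip2nip3 and 94, 162 and 149 in nip3_qe17. It had log2 fold changes of -2.01 (SE 0.16) and -2.13 (SE 0.16), with adjusted p-values of 5.02e-06 and 3.65e-06.

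The X signal element gene ceh-39 had 182 and 227 counts in wt, against 28, 33 and 40 in nip2nip3 and 25, 46 and 38 in nip3_qe17. The dosage compensation gene sdc-1 had 277 and 275 in wt, against 26, 21 and 44 in nip2nip3 and 37, 45 and 61 in nip3_qe17. Both fell in every mutant library. The gene sdc-2, which recruits the dosage compensation complex to X, had 208 and 227 counts in wt, against 250, 231 and 343 in nip2nip3 and 154, 365 and 373 in nip3_qe17. Its log2 fold change was 0.44 (SE 0.14, adjusted p 0.0254) in nip2nip3, which became -0.062 with libraries scaled to microRNAs, and 0.27 (adjusted p 0.150) in nip3_qe17. It overlaps an antisense RNA gene.

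Small RNA and heterochromatin genes fell at 6 of 8 tested in each mutant and rose at none, with medians of -1.08 and -1.35 beside -1.15 and -1.19 over all X-linked genes tested. The THAP-domain repressor gene lin-15B (15726129 to 15731861) had 732 and 618 counts in wt, against 89, 48 and 98 in nip2nip3 and 65, 178 and 141 in nip3_qe17. It had log2 fold changes of -3.01 (SE 0.24) and -2.58 (SE 0.23). The heterochromatin protein gene hpl-1 had 278 and 302 counts in wt, against 29, 47 and 60 in nip2nip3 and 29, 67 and 39 in nip3_qe17. The GW182-related gene ain-1 had log2 fold changes of -0.97 and -1.28. The microRNA Argonaute gene alg-1 had a log2 fold change of -0.19 (adjusted p 0.407) in nip2nip3 and fell by 0.71 (SE 0.18, adjusted p 0.0114) in nip3_qe17.

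The genes for MEG proteins, which organise the germ granules of the embryo, fell at 3 of 4 in each mutant, with medians of -1.26 and -1.03. The gene meg-4 (1682954 to 1686419) had 307 and 426 counts in wt, against 24, 15 and 50 in nip2nip3 and 19, 38 and 45 in nip3_qe17, log2 fold changes of -3.55 (SE 0.25) and -3.58 (SE 0.25). Counts at meg-3 were 90 and 90 in wt, against 37, 28 and 39 in nip2nip3 and 27, 53 and 45 in nip3_qe17. Neither gene had a mutant library at the wt level. The gene meg-1 had log2 fold changes of -1.26 and -0.81, and meg-2 had values of -0.43 in both (adjusted p 0.339 and 0.361).

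Most genes in the neuronal and developmental lists did not pass the filter on low counts, and the share that fell among those tested varied between lists. Receptors for neurotransmitters and neuropeptides fell at 12 of 14 tested, of 56 in the table, in each mutant, with medians of -2.42 and -2.32. The neuropeptide receptor gene npr-11 (1251815 to 1255647) had 487 and 395 counts in wt, against 52, 42 and 72 in nip2nip3 and 21, 51 and 37 in nip3_qe17, log2 fold changes of -2.90 (SE 0.19) and -3.76 (SE 0.20). The ligand-gated channel gene lgc-40 had log2 fold changes of -3.73 and -4.13. Potassium channel and innexin genes fell at 3 of 10 tested in each. The KQT potassium channel gene kqt-2, named after its values were seen, rose in nip2nip3, from 5 and 2 counts in wt to 6, 13 and 16 (log2 1.78, SE 0.56, adjusted p 0.0268). None of the 5 touch receptor neuron genes in the adult table was tested.

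Homeobox genes fell at 5 of 6 tested in nip2nip3 and 4 of 6 in nip3_qe17. Counts at ceh-41, a ONECUT homeobox gene, were 320 and 309 in wt, against 89, 46 and 109 in nip2nip3 and 74, 97 and 78 in nip3_qe17. Of 8 insulin, TGF-beta and DAF signalling genes tested, 4 fell and 1 rose in nip2nip3, and 5 fell and 1 rose in nip3_qe17. The gene that rose was the MAP kinase gene sma-5, at low counts, with log2 fold changes of 3.21 (SE 0.49) and 1.77 (SE 0.55). The co-SMAD gene daf-3 had log2 fold changes of -1.13 and -1.58, and the kinase gene akt-2 had values of 0.09 and 0.20 (adjusted p 0.770 and 0.512). Of 8 axon guidance and matrix genes tested, 4 and 5 fell, among them the dystroglycan gene dgn-1 (log2 -1.77 and -1.87) and the laminin gene lam-2 (log2 -0.75 and -0.67). Of 3 muscle genes tested, unc-78, for an actin-interacting protein, fell in both. The yolk protein genes vit-1 to vit-5, which adults transcribe heavily in the intestine, had no call among 5 tested in either mutant, and none of the 3 heterochronic genes tested was called.

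Set directly against each other, the mutants differed at few X-linked genes. Of 959 tested, 5 were higher and 3 lower in nip2nip3 than in nip3_qe17, where over all genes 2.72% were called higher and 1.47% lower. The X-linked median log2 difference was 0.09. Calls were rarer at low levels. Autosomal genes within the limits of the 3 lower level groups were higher at 0.64% to 1.16% and lower at 0% to 0.67%. In the highest group they were higher at 2.85% and lower at 3.29%, beside 0.83% and 1.25% of X-linked genes. R09H3.3 (1667019 to 1668848) had 1168, 1247 and 1872 counts in nip2nip3 and 1569, 3211 and 3291 in nip3_qe17, a log2 difference of -0.66 (SE 0.09, adjusted p 0.00262). Its counts in wt were 4384 and 5274, above both mutants. The tetraspanin gene tsp-20 had 100, 70 and 112 counts in nip2nip3 and 31, 47 and 77 in nip3_qe17, a log2 difference of 1.13 (SE 0.23, adjusted p 0.0215). DESeq2 called 2 genes higher and 4 lower. Leaving out nip2nip3 library 1 or 2, or nip3_qe17 library 3, left 1 gene higher, and leaving out nip2nip3 library 3 or nip3_qe17 library 2 left 2. Without nip2nip3 library 2, 1 gene was lower.

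In embryo input, which X-linked small RNAs differ between nipnip2 and wt was asked in the same way. Of 436 X-linked genes tested 23 rose and 12 fell, which is 5.28% and 2.75%, with a median of 0.18. Over all 8505 genes tested 1.28% were called higher and 5.07% lower, with a median of 0.00. Among autosomal protein-coding genes 1.26% were higher and 2.81% lower, with a median of 0.04, so the share lower was near that on X. The calls are few and sensitive to the method: DESeq2 called 2 higher and 6 lower, and library totals without TMM scaling, which shift the median of all genes to 0.58, gave 147 higher and 4 lower. Without nipnip2 library 1 the counts were 14 and 25, and without wt library 1 19 genes were lower. The gene tbx-31, for a T-box factor (1671148 to 1674156), had 54 and 84 counts in wt and 27 and 11 in nipnip2, a log2 fold change of -1.94 (SE 0.32, adjusted p 0.00854). F39C12.1 had 328 and 275 in wt and 127 and 67 in nipnip2, and F52D2.6 had 277 and 287 against 130 and 74. The groups did not overlap at any of these genes, which was a condition of naming genes by their change.

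Increases in nipnip2 input were at most 1.39 on the log2 scale among the genes named by the rule. C09B8.4 had 15 and 26 counts in wt and 75 and 39 in nipnip2 (log2 1.39, SE 0.31, adjusted p 0.0282). The gene rei-2, for a RAB-11 exchange factor, had 86 and 81 against 265 and 123 (log2 1.11, SE 0.20, adjusted p 0.0142). C34F6.7 had 199 and 210 against 520 and 353, and acn-1, related to angiotensin-converting enzyme, 21 and 28 against 90 and 36. These pairs of libraries did not overlap, as the rule required. The gene xol-1 had 467 and 498 against 795 and 498 (log2 0.37, adjusted p 0.327), and nrde-3 566 and 434 against 799 and 465 (log2 0.27, adjusted p 0.620), with no call at either.

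A few genes held most of the X-linked counts in the NRDE-3 IP, where X-linked genes together were 5.53% to 9.36% of library counts. In CPM of the library total, F46C3.7 (11440040 to 11440652) had 14989 and 18568 in wt input, and 23044 and 19572 in the wt IP. In nipnip2 it had 15841 and 18884 in input and 35240 and 33757 in the IP. Y13C8A.1 (16883726 to 16884473) had nearly equal counts to F46C3.7 in every library, so the reads of the pair may be shared and both values are uncertain. T25G12.11 (17237288 to 17237539) had 35891 and 38724 counts in the wt IP and 6192 and 5814 in wt input.

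By library totals 10 X-linked genes were above input in the wt IP and 472 of 503 tested below. Over all 9248 genes 2.04% were higher and 95.3% lower, so the X-linked number above input in wt was near the share over all genes. In nipnip2 19 were above and 452 below, where over all genes 2.65% were higher and 92.9% lower. How far the lists of wt and nipnip2 overlap over all genes was not counted, so their overlap on X is not read as particular to X. Of the X-linked genes above input 8 were in both lists, which is 80% of the wt list and 42.1% of the nipnip2 list. In wt they were C11G6.2 (log2 1.68, SE 0.23), Y7A5A.3 (1.63, SE 0.59), Y102A11A.2 (1.5), T25G12.11 (1.35, SE 0.23), F39F10.4 (1.22, SE 0.26), stau-1 (0.87, SE 0.40), F52D2.12 (0.83, SE 0.25), F52D2.6 (0.81, SE 0.25), C49F5.8 (0.71) and ZK402.2 (0.58). Of these, F52D2.6 and F52D2.12 lie close together, starting at 1975992 and 1978014. ZK402.2 (1403744 to 1404117) lies beside ZK402.1 (1404271 to 1404997), which was above input in nipnip2 (log2 0.75). The gene stau-1 encodes a Staufen-related double-stranded RNA-binding protein, and had 53 and 60 IP counts against 13 and 12 in input. Few reads underlie the wt values of Y7A5A.3 and Y102A11A.2. Their mean CPM of the library total was 5.23 and 5.40 in the wt IP, and 1.62 and 1.85 in wt input.

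TMM scaling, the planned setting, gave a different split, because it sets libraries level by their middle genes. Under it 74 X-linked genes were higher and 58 lower in the wt IP than in input (11.7% and 12.8% over all genes). In nipnip2 134 were higher and 74 lower (15.8% and 14.7% over all genes). As percentages the X-linked values were 14.7% and 11.5% in wt, and 26.6% and 14.7% in nipnip2. Among autosomal protein-coding genes 6.02% were higher and 11.5% lower in wt, and 11.1% and 13.1% in nipnip2. The all-gene medians were -0.59 and -0.27 with TMM and -5.45 and -4.08 by totals. Without wt IP library 2 the wt counts were 47 and 31, and without nipnip2 IP library 1 46 were lower in nipnip2. The gene got-1.2 had 5823 and 7604 counts in wt input and 214 and 201 in the wt IP, a log2 difference of -6.29 (SE 0.30) by totals and -1.23 (SE 0.26) with TMM. Y7A5A.6 had 474 and 615 against 6 and 7, a log2 difference of -7.64 by totals and -2.62 with TMM.

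**Figure D5:**
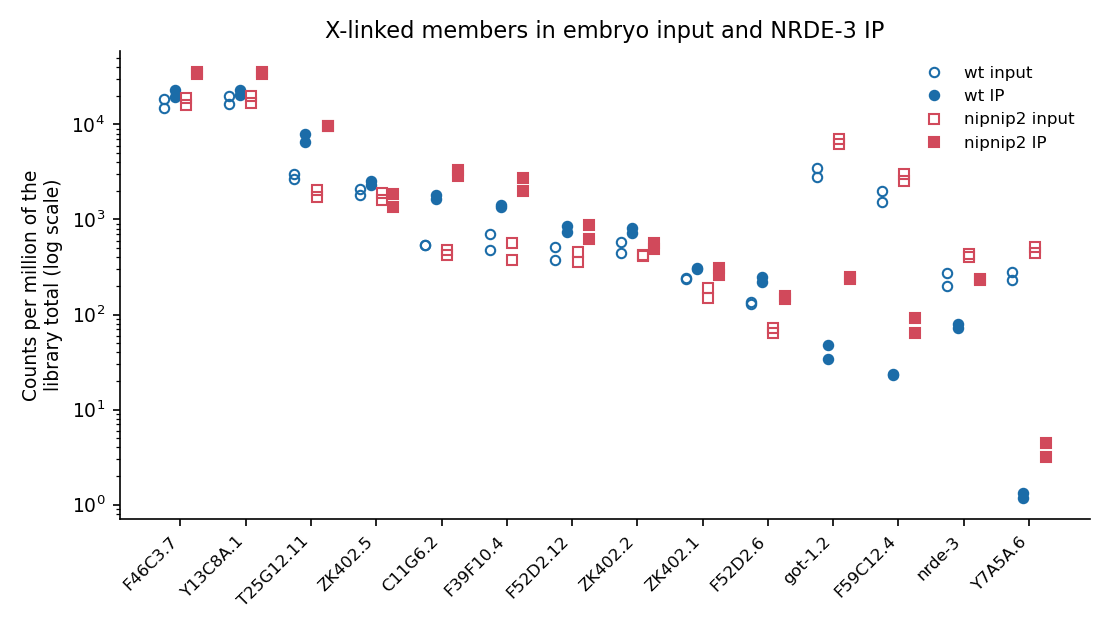
Level in CPM of the library total (log axis) at 14 X-linked genes in embryo wt (blue circles) and nipnip2 (red squares) libraries, open for input and filled for NRDE-3 IP; each point is 1 library. T25G12.11, C11G6.2 and F39F10.4 are above input in both IPs, and got-1.2, F59C12.4, nrde-3 and Y7A5A.6 are below it. The nipnip2 IP points of got-1.2 and Y7A5A.6 are above those of wt, where by library totals 77.4% of all genes tested were called higher in the nipnip2 IP.

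Between genotypes, the direction at the main IP genes turned with the scaling. With TMM 49 of 201 X-linked genes tested were higher and 28 lower in the nipnip2 IP, with a median of 0.60. Over all 2619 genes 10% were called higher and 23.4% lower, with a median of 0.18. Autosomal protein-coding genes were higher at 11.9% and lower at 9.53%, with a median of 0.45, beside 24.4% and 13.9% on X. X-linked genes were thus called more often in both directions than autosomal protein-coding ones. By totals 180 X-linked genes were higher and 4 lower. Over all genes 77.4% were higher by totals and 5.57% lower, with a median of 2.10. F46C3.7 had 104001 and 116590 counts in the wt IP and 122288 and 99833 in nipnip2, a log2 fold change of -1.22 (SE 0.16) with TMM and 0.70 (SE 0.16) by totals. T25G12.11 gave -1.51 and 0.42, C11G6.2 -1.09 and 0.84, and F39F10.4 -1.16 and 0.77. No direction is therefore given for these genes. Without wt IP library 1 or 2, or nipnip2 IP library 2, the genes higher with TMM numbered 28, 22 and 29.

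All 49 genes called higher with TMM were also called higher by totals. Totals shift the median of all genes from 0.18 to 2.10, so this overlap follows from the scaling. With TMM set by autosomal protein-coding genes alone 26 of the 49 were still called higher, and by DESeq2 20. Of the 28 called lower with TMM, 4 were also called lower by totals. These 4 were ZK402.5, F52D2.6, F19G12.3 and Y102A11A.2, the last named after its values were seen (log2 -3.42 with TMM and -1.51 by totals). ZK402.5 had 10493 and 15085 IP counts in wt and 6431 and 4028 in nipnip2, a log2 fold change of -2.52 (SE 0.23) with TMM and -0.59 (SE 0.22, adjusted p 0.0114) by totals. F52D2.6 had 991 and 1482 against 548 and 430, for -2.55 (SE 0.29) and -0.62 (SE 0.29, adjusted p 0.0398). F19G12.3 had 77 and 60 against 21 and 21, for -2.94 (SE 0.38) and -1.02 (SE 0.38, adjusted p 0.0110). F52D2.6 was also lower in nipnip2 input, where F19G12.3 had 32 and 17 counts against 2 and 1. ZK402.2 gave -2.45 and -0.52, the latter at an adjusted p of 0.0506.

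Of the 49 genes called higher with TMM, those named by the rule had few counts in the wt IP. The histone H3 lysine 27 demethylase gene jmjd-3.1 (8571049 to 8575451) had 41 and 44 counts in the wt IP and 336 and 316 in nipnip2, a log2 fold change of 1.72 (SE 0.33) with TMM and 3.64 (SE 0.36) by totals. The zinc finger gene ztf-13 had 7 and 9 against 63 and 90, K10B3.5 32 and 28 against 329 and 234, and rei-2 9 and 4 against 71 and 57. All 4 were still below their own input in nipnip2 by totals, with log2 differences of -2.73, -2.92, -2.42 and -2.68. The gene nrde-3 itself had 356 and 425 IP counts in wt and 815 and 677 in nipnip2, for -0.29 (SE 0.29, adjusted p 0.480) with TMM and 1.64 by totals.

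Between stages, 420 X-linked genes were tested in both adults and embryo input, 539 in adults only and 16 in input only. Levels in wt adults and wt input were correlated across genes (Spearman 0.72), which share gene length and sequence and are not replicates. Most X-linked genes that fell in adults were not called in embryos. Of the X-linked genes that fell in adult nip2nip3, 339 were tested in embryo input, where 22 were higher and 5 lower in nipnip2, with a median log2 fold change of 0.22. Over all X-linked genes tested in input 5.28% were higher and 2.75% lower, with a median of 0.18, and over all genes 1.28% and 5.07%. Among autosomal protein-coding genes 1.26% were higher and 2.81% lower. Of the 70 X-linked genes tested in input that were not called in adult nip2nip3, 1 was higher and 5 lower, with a median of 0.09. Of those that fell in nip3_qe17, 349 were tested in input, with 22 higher, 6 lower and the same median. In the IP with TMM scaling, 43 of 144 such nip2nip3 genes were higher and 9 lower, and 45 of 150 nip3_qe17 genes were higher and 10 lower, where over all X-linked genes tested in the IP 24.4% were higher and 13.9% lower. Of the 42 not called in adult nip2nip3, 6 were higher and 13 lower. The differences between these sets were not tested, and genes that passed the IP filter through nipnip2 alone were not set apart. The embryo strain is labelled nipnip2, which by name shares nip2 with nip2nip3 but matches neither adult genotype. Stage and genotype therefore cannot be told apart.

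Single genes show the same contrast. The gene npr-11 fell by 2.90 log2 in adult nip2nip3, and in embryo input it had 472 and 453 counts in wt and 995 and 548 in nipnip2 (log2 0.66, adjusted p 0.0694). The gene got-1.2, which fell by 1.52 log2 in adult nip2nip3, had 5823 and 7604 counts in wt input and 12726 and 7140 in nipnip2 (log2 0.50, adjusted p 0.252). The gene meg-4, which fell by 3.55 log2 in adult nip2nip3, had 127 and 116 against 126 and 67 in input (log2 -0.41, adjusted p 0.302).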

How the data were processed

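Small RNA reads were trimmed with cutadapt, aligned with STAR to ce11, counted with featureCounts and tested with DESeq2, per the submitters' processing notes, which give no versions. For embryos the deposited tables give whole counts per gene. The adult table holds estimated counts as deposited by the authors, fractional for 13539 genes, rounded here to whole numbers. An entry without identifier (1626 counts over the input libraries, 335 over the IP) was left out. Coordinates and biotypes came from RefSeq (WBcel235), which placed 28798 of the 31003 adult identifiers and 43632 of the 46740 embryo ones. The repeat tables and the 20 RNA-seq libraries were not used.

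Groups came from the labels. The embryo columns (wt1, wt2, nip1nip1_1, nip1nip2_2) do not carry the sample numbers of the labels. The column nip1nip1_1 was taken as nipnip2, the mutant embryo group in the labels, although its name differs, so that assignment is uncertain. edgeR 4.0.16 in R 4.3.3 (limma 3.58.1, data.table version 1.17.8) was run on each whole table with filterByExpr, TMM and the quasi-likelihood F-test; adults were fitted together, input and IP apart for genotype, and together for IP against input. Benjamini-Hochberg adjustment ran over all genes tested. Alternatives were DESeq2 1.42.0, other scalings and filters, a fold of 1.5, the groups compared alone, a replicate block and each library left out. Tests were checked on simulated counts. Python 3.11.15 with pandas 2.3.3 and matplotlib 3.10.9 made the summaries.

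The members, the 13 X-linked lists and the 5 marker lists were chosen with earlier results of these data known. Named genes were called, had a mean of at least 20 counts and groups that did not overlap: the 8 largest changes per direction against wt in adults, 5 elsewhere, and the 3 smallest p. Added were the 8 genes of highest wt CPM per kb of span and list members. Those printed, the broad regions of X, the list of genes above input by totals and the split by how genes passed the filter were chosen after values were seen. Precision is limited by 2 or 3 libraries per group.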

Additional observations from a re-analysis of the deposited data

Results flagged for a closer look

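At 8 X-linked genes the direct test of the adult mutants against each other passed, so their changes from wt differ between nip2nip3 and nip3_qe17. All values are log2 differences of nip2nip3 from nip3_qe17 by edgeR's quasi-likelihood test, each with its adjusted p. Lower in nip2nip3 were T13C5.6 (-0.68, adjusted p 0.0119), R09H3.3 (-0.66, adjusted p 0.00262) and R04E5.9 (-0.62, adjusted p 0.0292). At each of them both mutants were below wt. Counts at R09H3.3 were 4384 and 5274 in wt, against 1168, 1247 and 1872 in nip2nip3 and 1569, 3211 and 3291 in nip3_qe17. R04E5.9 was at 1081 and 1259 counts in wt, against 83, 71 and 141 in nip2nip3 and 113, 224 and 193 in nip3_qe17.

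Higher in nip2nip3 were Y73B3B.3 (0.59, adjusted p 0.0271), tsp-20 (1.13, adjusted p 0.0215), oac-14 (1.22, adjusted p 0.0303), sma-5 (1.44, adjusted p 0.0381) and ram-5 (4.03, adjusted p 0.0160). Y73B3B.3 and tsp-20 were below wt in both mutants. The acyltransferase gene oac-14 had 6 and 3 counts in wt, against 26, 39 and 49 in nip2nip3 and 14, 21 and 22 in nip3_qe17. The MAP kinase gene sma-5 had 2 and 3 in wt, against 17, 17 and 35 in nip2nip3 and 8, 8 and 13 in nip3_qe17. For ram-5 the counts were 1 and 0 in wt, against 11, 11 and 10 in nip2nip3 and 0, 2 and 0 in nip3_qe17, so its fold rests on few reads.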

How the results depend on the processing

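Adult decreases at X-linked genes (538 in nip2nip3, 543 in nip3_qe17) held within 1.5 times under every alternative run except a mean of at least 50 counts, which left fewer genes tested and gave 222 and 229. Increases (76 and 58) were 46 and 34 by DESeq2, 47 and 31 by totals, 32 and 24 at a mean of 50, 37 and 22 against a fold of 1.5, and 30 and 19 scaled to microRNAs. Between the mutants (5 and 3), DESeq2 called 2 higher, autosomal TMM 8, the groups compared alone 3, and a fold of 1.5 left 1 and 0. Embryo input (23 and 12) gave 2 and 6 by DESeq2, 147 and 4 by totals, 14 higher with autosomal TMM, 44 and 31 without a filter, 15 and 6 at a mean of 50, and 0 and 4 against a fold of 1.5. The IP between genotypes (49 and 28) gave 21 higher by DESeq2, 180 and 4 by totals, 26 higher with autosomal TMM and 3 lower at a mean of 50. IP against input in wt (74 and 58) gave 129 higher by DESeq2, 10 and 472 by totals, 117 and 90 unfiltered, and 32 and 22 at a mean of 50. In nipnip2 (134 and 74) it gave 19 and 452 by totals, 203 higher unfiltered, and 51 and 34 at a mean of 50. Other than by construction, the cause was not tested.

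Leaving out each library gave 45 to 76 higher and 422 to 558 lower in nip2nip3, 30 to 58 and 427 to 553 in nip3_qe17, and 1 to 5 and 1 to 4 between them. In embryos it gave 14 to 33 and 12 to 25 in input, 22 to 36 and 23 to 26 in the IP, 47 to 88 and 31 to 72 for wt IP against input, and 99 to 161 and 46 to 85 for nipnip2.

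Group means of the X-linked share without the top 10 genes were 4.84%, 1.70% and 1.56% in adults (wt, nip2nip3, nip3_qe17), 5.38% and 7.17% in input, and 0.377% and 1.23% in the IP. With the gene families kept, the share moved to 3.06% in nip3_qe17, 15.3% in nipnip2 input, and 16.8% and 20.7% in the IP. Reversed signs were sdc-2 in nip2nip3 (-0.062, scaled to microRNAs) and, in the IP by totals and at a mean of 50, F46C3.7 (0.70, 0.56), Y13C8A.1 (0.70, 0.55), T25G12.11 (0.42, 0.27), C11G6.2 (0.84, 0.68), F39F10.4 (0.77, 0.61), nrde-3 (1.64, 1.49) and, by totals, meg-3 (0.025).

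Same-numbered adult libraries deviated together with correlations of -0.01 to 0.25, not all above 0.1, so the number was not taken as a pairing. With the replicate block, adult calls were 70 higher and 510 lower in nip2nip3, 48 and 509 in nip3_qe17, and 5 and 3 between them. For IP against input the block matched libraries of a genotype by column number, so that pairing is uncertain. It gave 72 and 64 in wt and 125 and 71 in nipnip2. No paired analysis was possible for the genotypes in embryos because their labels share only the number 3. Between genotypes, a block by the column numbers, which are not those of the labels, was not run. The smallest input library had 1149366 counts, and 436 of 2511 X-linked genes were tested in input and 201 in the IP, so most were not compared in embryos.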
